A study of Mus musculus with 48 samples.

Results

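Collagens, laminins, matrix metalloproteinases (MMPs), Adamts proteases and the Timp inhibitors were followed through 4 tissues of the central dopamine system of the mouse and through the day. Members were taken by symbol: genes named Col, Lama, Lamb, Lamc, Mmp, Adamts or Timp with their numbers, from array rows that carry 1 gene symbol, with the row of the highest mean kept per gene. Of 96 such genes, 88 passed a filter on the mean log2 level over all arrays, which fell between Col10a1 (4.99, left out) and Col6a5 (5.10, kept). They were tested among 17258 genes in all. The study used male C57BL/6 mice, with no genetic change or treatment named, held on a cycle of 12 h light and 12 h dark. Habenula (HAB), striatum (STR), prefrontal cortex (PFC) and a midbrain piece (SN/VTA) holding the ventral tegmental area and the substantia nigra were sampled at 6 times of day. Zeitgeber time (ZT) counts hours from lights on, and samples were taken at ZT 3, 7, 11, 15, 19 and 23. Each of the 48 arrays carried RNA pooled from 3 mice, with replicate 1 from the first and replicate 2 from the second of 2 successive 24-h cycles, so that each tissue had 12 arrays. The labels used here do not say whether the pools of different tissues at 1 time came from the same mice, and p-values cover only how much the pools vary.

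The extracellular matrix of the brain differs from that of connective tissue. Fibrillar collagens lie mainly in the meninges and around vessels, while collagen IV and the laminins, which are trimers of an alpha, a beta and a gamma chain, form the basement membrane under endothelial cells and astrocyte endfeet. MMPs and Adamts proteases cut matrix proteins, Adamts4 and its relatives being known for cutting lecticans such as brevican, and the Timp proteins bind and block these proteases. Mmp14 is a membrane-anchored MMP that activates the secreted Mmp2 with the help of Timp2. In whole tissue, fewer cells of a type and less RNA per cell cannot be told apart.

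The promoter of Mmp14, the member with the clearest daily change, and that of Lama2, which reached its peak at another time of day, are shown as the 250 bases before the annotated start in RefSeq (GRCm38.p6), 5′ to 3′ on the strand of the gene. Mmp14 lies at chr14:54431348-54431597 on the plus strand and Lama2 at chr10:27616943-27617192 on the minus strand. Capitals mark matches, on either strand, to the E-box CACGTG, the D-box TTATGTAA, the RORE core TAGGTCA, the GC box GGGCGG and the TATA box TATAAA.
Mmp14: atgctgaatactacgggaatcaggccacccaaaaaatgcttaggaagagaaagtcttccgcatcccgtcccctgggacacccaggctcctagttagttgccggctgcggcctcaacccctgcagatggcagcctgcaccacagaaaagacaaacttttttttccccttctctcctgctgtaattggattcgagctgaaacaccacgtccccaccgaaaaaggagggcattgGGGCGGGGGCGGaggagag
Lama2: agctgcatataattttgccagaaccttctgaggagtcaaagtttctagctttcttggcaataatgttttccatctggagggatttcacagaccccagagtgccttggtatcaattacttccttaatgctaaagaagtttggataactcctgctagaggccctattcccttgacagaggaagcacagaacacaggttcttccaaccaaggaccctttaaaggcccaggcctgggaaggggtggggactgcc
The Mmp14 stretch held 2 GC boxes, whose first letters lay 19 and 13 bases before the start, and the Lama2 stretch held none of the 5 motifs. RefSeq promoters were found for 60 of the 88 members, 66 promoters in all. The GC box stood in 56.1% of these against 32.7% of the 32851 promoters of the table, and the TATA box in 12.1% against 12.4%. Of the motifs known from clock output genes, the E-box stood in 3.03% of the members' promoters (those of Adamts17 and Mmp7) against 6.02%, the RORE core in 1.52% (Mmp10) against 2.23%, and the D-box in 0 of 66 against 0.819%. These shares describe letters in a window and were not tested.

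Array medians ran from 5.84 to 6.07, and correlations between replicates of a tissue and time from 0.982 to 0.995. The medians were not level across tissues. Centring each array on its median moved the median difference of all genes between SN/VTA and the other tissues from 0.05 to 0.20. The array medians of SN/VTA thus lay lower on average. The defining genes of each region, Slc6a3 for SN/VTA, Fezf2 for PFC, Drd1 for STR and Chrna3 for HAB, were in all 12 arrays of their tissue above every array of the others. Within HAB, however, 5 arrays stood apart in the choroid plexus marker Ttr (transthyretin): 7 arrays lay between 13.02 and 13.14 and the other 5, all from the second cycle, between 10.14 and 10.76. The mean of 10 choroid plexus markers ran from 8.47 to 8.92 in the former and from 6.79 to 7.19 in the latter, against 6.37 to 7.17 in SN/VTA, 5.71 to 6.01 in PFC and 6.30 to 7.04 in STR. In SN/VTA, Ttr lay between 11.28 and 11.98 in 4 arrays (both of ZT15 and the first replicates of ZT23 and ZT3) and between 8.49 and 10.38 in the other 8. In STR, the first replicate of ZT3 stood at 11.79 against 7.13 to 8.94. Differences between HAB and the mean of the other tissues that are named below for a member are given with and without the 5 low arrays where this moved them by over 1.5 times or changed a call.

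The 3 highest signals among the members belonged to Timp2 (mean 10.31 over all arrays), Timp3 (9.14) and the membrane-anchored Mmp17 (8.87), and the 3 lowest to Mmp27 (5.23), Adamts12 (5.14) and Col6a5 (5.10). Signals of different probe sets are not amounts of RNA that can be set against each other, and 29 of the 88 members had a mean below 6.00, the median of the array medians. The limit set by background is unknown, so a fold against a low signal can be too small. The 8 genes under the filter were Col10a1, Col28a1 (4.98), Mmp8 (4.77), Mmp20 (4.74), Mmp12 (4.58), Timp1 (4.53), Mmp3 (4.42) and Mmp13 (4.10), while Col6a5 and Adamts12 lay just inside it. All 18 Adamts genes, all 11 fibrillar collagens and all 10 laminin chains that matched the symbols passed, but 9 of 14 secreted MMPs did.

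**Figure D1:**
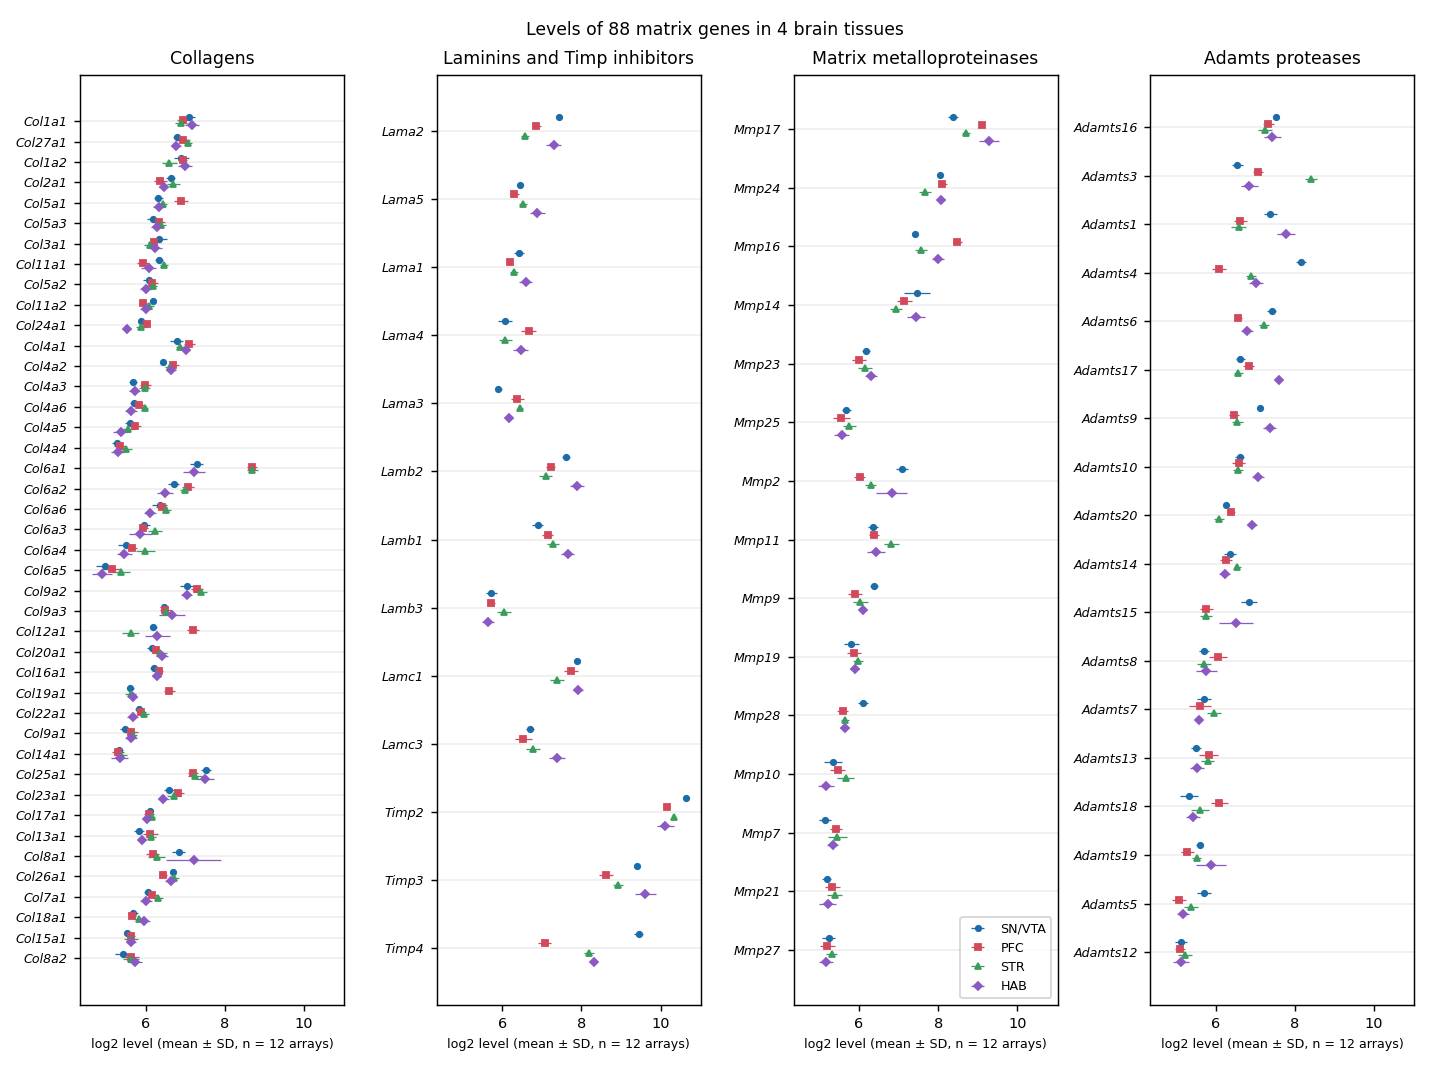
Mean log2 level ± SD over 12 arrays for each of the 88 members in SN/VTA, PFC, STR and HAB, grouped by family. The widest gaps between tissues are those of Timp4 and Adamts4, and 11 of the 88 members differ by at least 1 log2 unit between some pair of tissues.

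Each tissue was compared with the mean of the other 3, and a gene was called at a Benjamini-Hochberg adjusted p under 0.05 (limma) and a difference of at least 1 on the log2 scale. In SN/VTA, 2 members were higher, Timp4 and Adamts4, and 0 lower, against 2.25% of all genes tested called higher and 1.3% lower. PFC had 1 higher member, Col12a1, and 2 lower, again Timp4 and Adamts4, against 2.34% and 2.94% of all genes. STR had 1 higher, Adamts3, and 0 lower, against 1.03% and 1.16%, and HAB had 0 in either direction, against 1.4% and 0.678%. So few members passed this size that the counts lie near those of all genes.

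Timp4, an inhibitor of MMPs known from brain and heart, had its highest level in SN/VTA. Its lowest, median and highest arrays there were 9.29, 9.46 and 9.62, against 8.17, 8.31 and 8.45 in HAB, 7.97, 8.22 and 8.40 in STR and 6.74, 7.11 and 7.33 in PFC. All 12 SN/VTA arrays lay above, and all 12 PFC arrays below, every array of the other tissues, whereas HAB and STR overlapped. SN/VTA exceeded the mean of the others by 1.59 ± 0.04 (SE; 3.01-fold, adjusted p = 9.75e-24) and PFC lay below it by a log2 difference of -1.58 ± 0.04 (adjusted p = 3.22e-24). Directly, SN/VTA was 5.21-fold above PFC. Timp2, the partner of Mmp14 in activating Mmp2, was higher in SN/VTA by 0.44 ± 0.05 (adjusted p = 6.93e-10, limma). All 12 arrays (10.55 to 10.78) lay above those of the other tissues, but only just: the lowest was 10.548 and the highest HAB array 10.545. Timp3, an inhibitor that stays bound to the matrix, lay lowest in PFC at 8.63 ± 0.17 (SD, n = 12; difference -0.68, adjusted p = 7.79e-12) at 9.61 ± 0.27 in HAB against 9.39 in SN/VTA (mean). The level in HAB moved with Ttr: the 7 arrays of high Ttr averaged 9.77 (9.51 to 10.04), while the 5 of low Ttr averaged 9.38 (9.16 to 9.63) and were not above SN/VTA on average. HAB exceeded the mean of the other tissues by 0.63 with all arrays, by 0.78 without the low arrays and by 0.40 without the high ones. With no minimum difference, 3 of 3 Timp members tested were called higher in SN/VTA, against 44.3% of all genes, and 3 of 3 lower in PFC, against 42.6%. Both counts were the same under both other scalings of the arrays, where all genes gave 62.7% and 49.9% in SN/VTA and 43.7% and 43.3% in PFC, so that counts over 3 genes say little.

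Adamts4, a protease that cuts lecticans, followed the same order. Its SN/VTA arrays ran from 7.87 to 8.30 (median 8.17), HAB from 6.84 to 7.34 (6.97), STR from 6.68 to 7.08 (6.90) and PFC from 5.67 to 6.35 (6.07). No SN/VTA array overlapped another tissue, and no PFC array did. The difference was 1.49 ± 0.05 in SN/VTA (2.81-fold, adjusted p = 1.41e-21) and -1.28 ± 0.05 in PFC (adjusted p = 2.17e-20). Markers of oligodendrocytes, their precursors, astrocytes and microglia differed between the tissues too, but not all in the order of Timp4 and Adamts4. The mean of 8 oligodendrocyte markers ran from 10.35 to 10.59 in SN/VTA, 9.31 to 10.15 in HAB, 9.32 to 9.57 in STR and 8.59 to 9.08 in PFC, and 8 of 8 were higher in SN/VTA and lower in PFC at any size. The mean of 9 astrocyte markers was 9.88 to 10.02 in SN/VTA, 9.42 to 9.68 in HAB, 9.02 to 9.28 in STR and 9.05 to 9.22 in PFC. PFC thus did not lie below STR. At any size, 7 of the 9 were higher and 2 lower in SN/VTA, and 2 were higher and 7 lower in PFC. Of 8 microglia markers, 7 were higher in SN/VTA, 6 were higher in PFC, where Timp4 and Adamts4 were lowest, and 8 were lower in HAB. The mean of 6 oligodendrocyte precursor markers was 8.60 to 8.80 in SN/VTA and 8.03 to 8.25 in HAB. It was 8.04 to 8.25 in STR and 7.87 to 7.96 in PFC. At any size, 6 of these 6 were higher in SN/VTA, and 1 was higher and 5 lower in PFC. Of all genes, 44.3% were higher in SN/VTA at any size and 29.1% lower. The higher share was 62.7% after centring each array on its median and 49.9% after quantile normalization. In PFC 32.2% were higher and 42.6% lower, and in HAB 36% were lower. The marker counts were not tested against these shares. The lowest marker of the first 2 lists, Opalin in PFC for oligodendrocytes and Aldh1l1 in PFC for astrocytes, still had a mean of 6.93 and 7.39. The part of these markers in the levels of Timp4 and Adamts4 was not tested.

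Adamts3, a procollagen N-proteinase that also acts on reelin, was the member that set STR apart. Its STR arrays lay between 8.10 and 8.60 (median 8.46), against 6.81 to 7.25 in PFC, 6.46 to 7.27 in HAB and 6.41 to 6.77 in SN/VTA. No STR array overlapped another tissue, and the difference was 1.58 ± 0.06 (3.0-fold, adjusted p = 3.33e-20). Col12a1, a fibril-associated collagen, had 6.89 to 7.38 in PFC, 6.08 to 6.38 in SN/VTA, 5.86 to 6.78 in HAB and 5.18 to 5.90 in STR. All 12 PFC arrays stood above the rest, by 1.17 ± 0.06 (2.24-fold, adjusted p = 1.15e-16), and STR lay below the others by a difference of -0.94 that missed the size asked for.

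**Figure D2:**
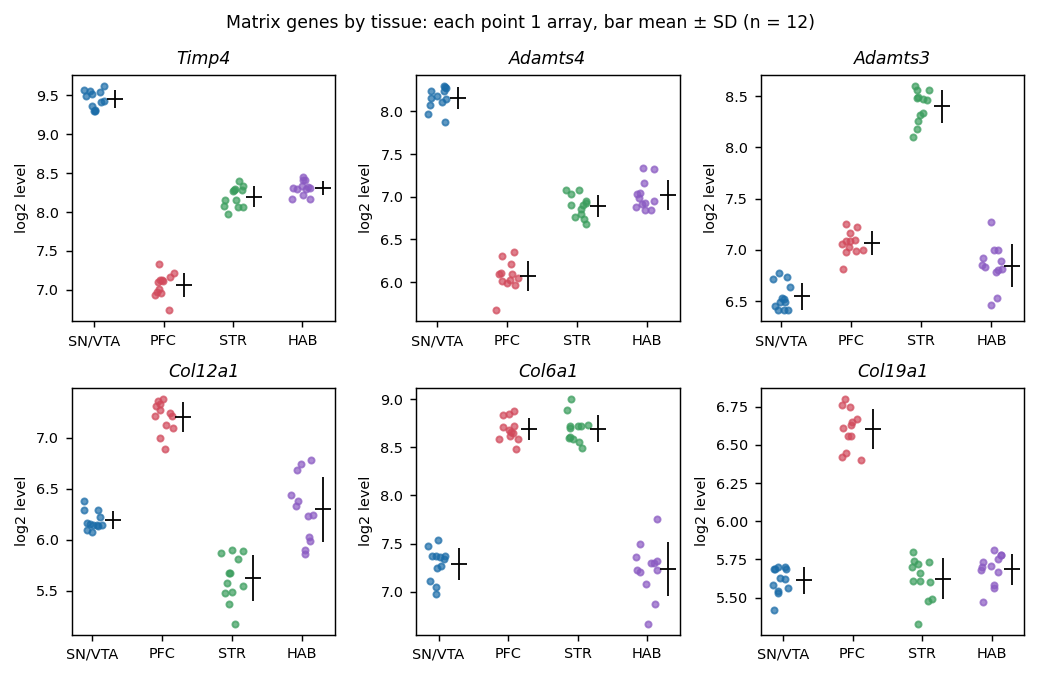
Log2 levels of Timp4, Adamts4, Adamts3, Col12a1, Col6a1 and Col19a1 by tissue, with 1 point per array and the mean ± SD over 12 arrays beside it. Timp4 and Adamts4 are highest in SN/VTA and lowest in PFC without overlap, Adamts3 stands apart in STR and Col12a1 in PFC, and Col6a1 forms a high pair (PFC, STR) and a low pair (SN/VTA, HAB).

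Between single tissues, 7 members differed by at least 1 between SN/VTA and PFC (9.33% of all genes), 5 between SN/VTA and STR (5.18%), 2 between SN/VTA and HAB (3.58%), 3 between PFC and STR (6.24%), 4 between PFC and HAB (5.69%) and 4 between STR and HAB (3.42%). These comparisons were added after the data were seen and share samples with each other. Col6a1, a chain of the beaded filaments of collagen VI, averaged 8.69 ± 0.12 in PFC and 8.69 ± 0.14 in STR but 7.29 ± 0.17 in SN/VTA and 7.23 ± 0.28 in HAB (SD, n = 12). That is a 2.64-fold gap between PFC and SN/VTA (adjusted p = 9.71e-21), while its difference from the mean of the other 3 tissues was 0.95 in PFC and in STR. A second row for Col6a1 gave 6.69 in STR but 5.62 in PFC, 5.24 in SN/VTA and 5.21 in HAB, so that the rows disagree on PFC. Mmp2, the gelatinase that Mmp14 activates, was 2.11-fold higher in SN/VTA (6.87 to 7.37) than in PFC (5.74 to 6.22), and the 2 ranges did not overlap. Mmp16, another membrane-anchored MMP, went the other way, with 7.32 to 7.52 in SN/VTA and 8.19 to 8.60 in PFC (2.08-fold, adjusted p = 3.52e-17). Adamts15, a further lectican-cutting protease, was 2.11-fold higher in SN/VTA than in both PFC and STR. Adamts17 was 2.02-fold higher in HAB than in STR, and its HAB arrays (7.44 to 7.71) lay above all others.

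With no minimum difference, 24 members were higher and 35 lower in SN/VTA, against 44.3% and 29.1% of all genes. The counts were 21 and 34 in PFC (32.2% and 42.6%), 35 and 27 in STR (34.1% and 40.9%) and 31 and 34 in HAB (31.4% and 36%). These small differences depended on the scaling. Centring each array on its median moved the median of all genes in SN/VTA from 0.05 to 0.20 and that in STR from -0.02 to -0.12, and turned the split of members to 42 higher and 11 lower in SN/VTA (62.7% and 15.4% of all genes) and to 21 and 37 in STR (21% and 52%). Quantile normalization gave 39 and 15 in SN/VTA (49.9% and 24.2%), where the median of all genes was 0.10, and 21 and 35 in STR (29.3% and 41%). No direction of the members as a whole is given for SN/VTA or STR. The median difference of the members on the deposited scale was -0.07 in SN/VTA, -0.04 in PFC, 0.05 in STR and -0.02 in HAB.

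In some families most calls kept the same direction under all 3 scalings. Collagen VI was called higher in STR for 6 of 6 chains and lower in HAB for 6 of 6, with median differences of 0.35 and -0.29. Over the 3 scalings, 21% to 34.1% of all genes were higher in STR and 36% to 42.5% lower in HAB. Without the 7 HAB arrays of high Ttr, 4 of 6 chains were lower there, Col6a4 and Col6a5 losing their call. Collagen IV, the network of the basement membrane, was higher in PFC for 4 of 6 chains and lower for 0, where 31.1% to 32.5% of all genes were higher. Laminin alpha chains were higher in HAB for 4 of 5, while Lama3 was lower (-0.08, adjusted p = 0.0459, limma). Of 3 beta chains, 2 were higher there and Lamb3 was lower (-0.19, adjusted p = 0.000331, limma). Both gamma chains tested were higher, led by Lamc3 at 7.37 ± 0.20 against 6.53 to 6.79 elsewhere (means, 1.62-fold, adjusted p = 3.98e-13). Over the 3 scalings, 26% to 31.4% of all genes were higher in HAB and 36% to 42.5% lower. The laminin counts were the same without either set of HAB arrays, except that Lama3 lost its call both times. Its difference was -0.04 without the low and -0.09 without the high arrays. Lamc3 was higher by 0.70 with all, 0.77 without the low and 0.63 without the high arrays. Most vessel markers were higher in HAB too at any size. Of 11 endothelial markers, 8 were higher and 1 lower, and of 10 pericyte and smooth muscle markers 7 and 2. Of 13 fibroblast markers of meninges and vessels, 9 were higher and 1 lower. Their part in the laminin levels was not tested. Of the 18 Adamts proteases, 12 were lower and 3 higher in PFC, against 42.6% to 43.7% and 31.1% to 32.5% of all genes. These counts were not tested against those of all genes. In contrast, collagen IV in SN/VTA went from 0 higher and 4 lower on the deposited scale to 1 and 0 after centring, so no direction is given.

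In HAB, several members moved with the choroid plexus marker. Col8a1, a short-chain collagen of vessel walls, was 7.38 to 8.16 in the 7 arrays of high Ttr and 6.21 to 6.66 in the other 5. Col9a3 lay at 6.69 to 7.10 in the former and 6.16 to 6.50 in the latter, and Mmp2 at 6.91 to 7.28 and 6.12 to 6.87. None of the 3 ranges overlapped between the sets, which were formed from Ttr after the data were seen. Over all arrays Col8a1 was higher in HAB by 0.78 ± 0.13 (adjusted p = 9.22e-06). Without the 5 arrays of low Ttr this was 1.30 ± 0.08 (2.46-fold), and without the 7 arrays of high Ttr 0.05 ± 0.07 (adjusted p = 0.55). For Mmp2 in HAB the same differences were 0.64 ± 0.05 without the low arrays and -0.04 ± 0.06 without the high ones. Adamts17 kept its difference. It was higher in HAB by 0.91 ± 0.03 over all arrays. This was 0.91 ± 0.04 without the low arrays and 0.90 ± 0.04 without the high ones. Adamts1, a secreted protease of the same family, kept its direction, being higher by 0.90, 1.04 and 0.73. Its level moved with Ttr too, at 7.73 to 8.35 in the arrays of high Ttr and 7.48 to 7.72 in those of low Ttr. The count of members at least 1 apart in HAB was 0 with all arrays, 3 without the low arrays (Adamts1, Col6a1 and Col8a1) and 1 without the high ones (Col6a1). At least 1 apart were 1.4% of all genes higher and 0.678% lower with all arrays, 1.55% and 0.695% without the low ones, and 1.39% and 0.632% without the high ones. With no minimum difference, 39 of the 65 members called in HAB had the same call without either set. 3 members (Col9a3, Col12a1 and Col14a1) were called higher without the low arrays and lower without the high ones. Leaving out the high arrays leaves no HAB array at ZT15. The part of choroid plexus tissue in these levels was not tested further.

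**Figure D3:**
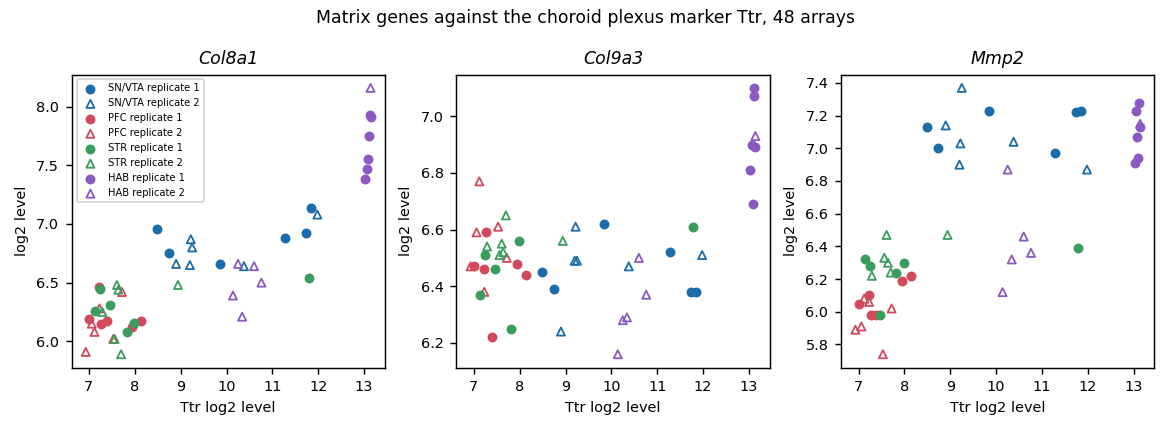
Log2 levels of Col8a1, Col9a3 and Mmp2 against that of the choroid plexus marker Ttr in 48 arrays, with filled points for replicate 1 and open triangles for replicate 2. In HAB, the 7 arrays with Ttr above 13 carry higher levels of all 3 genes than the 5 arrays with Ttr between 10.14 and 10.76.

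The rhythm of each member was taken from a 24-h cosine curve fitted to the 12 arrays of a tissue, with the amplitude given from mean to peak. Mmp14 was called in SN/VTA and was the 1 member called in any single tissue. All genes tested were called at 0.162% in SN/VTA, 0.18% in PFC, 0.0174% in STR and 0.0174% in HAB. The SN/VTA rhythm of Mmp14 was known when the members were chosen and is described here.

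Mmp14 (probe set 17300279, Entrez gene 17387, chromosome 14) was lowest in SN/VTA at ZT11, with 6.95 and 7.04 in the first and second cycle. It stood at 7.23 and 7.14 at ZT15, 7.45 and 7.52 at ZT19, 7.66 and 7.74 at ZT23, 7.95 and 7.83 at ZT3 and 7.52 and 7.54 at ZT7. Both cycles thus gave the same order, up through the dark phase to early light and down before lights off, and replicates differed by at most 0.12. The fitted amplitude was 0.41 ± 0.04 with a peak at ZT1.1 ± 0.4 (SE), a 1.76-fold change from trough to peak (adjusted p = 0.00904).

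In HAB, Mmp14 ran from 7.20 and 7.0 at ZT11 to 7.71 and 7.62 at ZT23 and 7.74 and 7.59 at ZT3. Its amplitude there was 0.28 ± 0.05 with a peak at ZT0.7, but the call failed over all genes (adjusted p = 0.221). PFC gave 7.10 and 6.79 at ZT11, 7.29 and 7.35 at ZT23 and an amplitude of 0.22 ± 0.05 peaking at ZT22.7 (adjusted p = 0.142). STR was lowest at ZT11 (6.74 and 6.70) and highest at ZT19 (7.12 and 7.12), with an amplitude of 0.13 ± 0.05 (adjusted p = 0.613). A model of all 48 arrays, which pools the spread of the tissues, gave adjusted p-values of 0.0220 for PFC and 0.00215 for HAB. ZT11 held the lowest time mean of Mmp14 in all 4 tissues. The mean level over the day was 7.46 ± 0.32 in SN/VTA, 7.45 ± 0.23 in HAB, 7.14 ± 0.19 in PFC and 6.94 ± 0.15 in STR (SD, n = 12), with overlapping ranges.

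**Figure D4:**
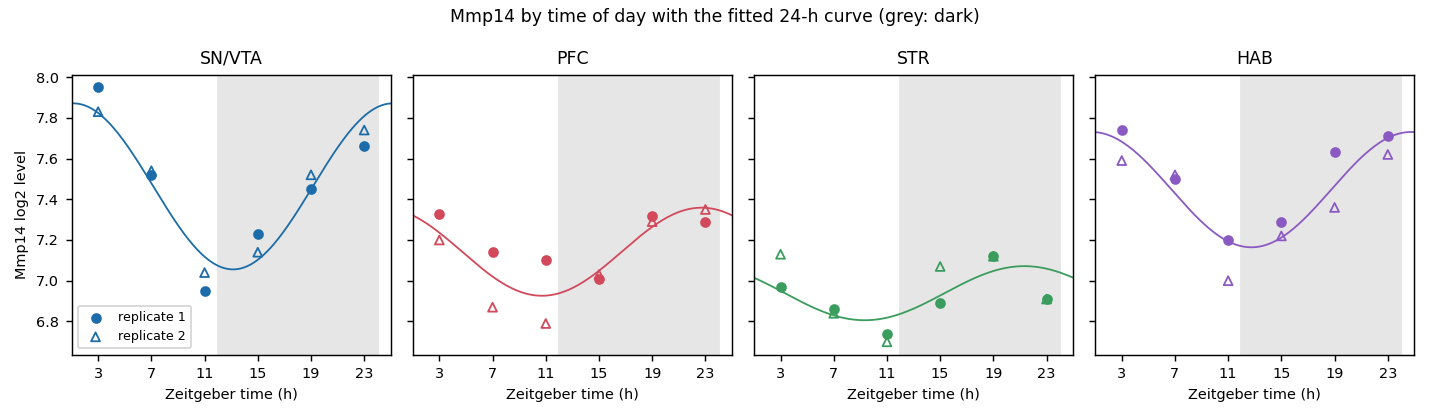
Mmp14 log2 level by Zeitgeber time in each tissue, with filled points for the first cycle, open triangles for the second, the fitted 24-h curve as a line and the dark phase in grey. The curve spans 0.41 log2 units from mean to peak in SN/VTA, 0.28 in HAB, 0.22 in PFC and 0.13 in STR, with the lowest points at ZT11.

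The difference of rhythms between tissues was tested directly and called 0 of 88 members (limma; 0.029% of all genes), with 4 members at an unadjusted p under 0.05 (6.65% of all genes). Mmp14 had the smallest p of the members there (adjusted p = 0.253), so its larger amplitude in SN/VTA was not shown to differ from the other tissues. When 1 rhythm was fitted to all 4 tissues, 3 members were called, against 5.55% of all genes, and 9 had an unadjusted p under 0.05 (19.2% of all genes). Mmp14 had a common amplitude of 0.24 ± 0.03 with a peak at ZT0.1 (1.40-fold, adjusted p = 5.50e-07).

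Lama2, the alpha chain of merosin, whose loss causes a muscular dystrophy, had a common amplitude of 0.10 ± 0.02 with its peak in late light, at ZT8.1 ± 0.9 (adjusted p = 0.0170). In HAB its arrays were highest at ZT7 (7.72 and 7.54) and lowest at ZT23 (7.04 and 7.18). The same ZT7 arrays of HAB stood apart in markers of pericytes and smooth muscle (mean of 10 markers 8.26 and 8.32, against 7.60 to 7.90 at the other times) and of fibroblasts (mean of 13 markers 8.23 and 7.91, against 7.22 to 7.69), whose part in the Lama2 curve was not tested. In SN/VTA the Lama2 arrays moved within 7.30 to 7.55, with ZT11 highest (7.50 and 7.55). In PFC ZT3 (7.09 and 6.89) and ZT7 (6.99 and 6.97) were highest. STR differed, with its highest time mean in the dark, at ZT15 (6.62 and 6.73), against 6.57 and 6.63 at ZT7. The call was lost without SN/VTA (adjusted p = 0.0906), without PFC (0.0679) or without HAB (0.163). Col4a2, a collagen IV chain, had a common amplitude of 0.08 ± 0.02 and a peak at ZT0.9 (adjusted p = 0.0392). With the sampling cycle as a block its adjusted p was 0.0536, and it was lost under centring (0.0664), with no filter on level (0.0544), when any 1 tissue was left out (0.0605 to 0.230) and when 1 of 11 single arrays was left out. Col4a1, whose start lies 21 bases from that of Col4a2 on chromosome 8, had an amplitude of 0.04 and was not called (adjusted p = 0.552).

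Below the threshold, 12 members had an unadjusted p under 0.05 in SN/VTA (9.88% of all genes), 10 in PFC (11.6%), 5 in STR (8.51%) and 7 in HAB (6.3%). In SN/VTA, Lama4, a laminin chain of endothelial basement membranes, came nearest to a call, with an amplitude of 0.22 ± 0.03 and a peak at ZT23.7 (adjusted p = 0.0581). Its arrays were lowest at ZT11 (5.83 and 5.85) and highest at ZT23 (6.27 and 6.29), and all 4 values at ZT23 and ZT3 lay above the 4 at ZT11 and ZT15. Lama4 passed after quantile normalization (adjusted p = 0.0494), among genes with a mean of 6 or more (0.0273) and without the second replicate of ZT15 (0.0234). It did not pass under the other settings, at adjusted p-values from 0.0615 to 0.672, the highest with all 48 arrays in 1 model, nor without any other single array of SN/VTA (0.0708 to 0.183). Adamts1 ran from 7.15 and 7.26 at ZT11 to 7.70 and 7.52 at ZT3, with an amplitude of 0.21 ± 0.04 and a peak at ZT3.4 (adjusted p = 0.0960, and 0.0519 to 0.933 under the other settings). Mmp2, which Mmp14 activates, had 0.17 ± 0.04 and the same fitted peak of ZT3.4 (adjusted p = 0.158).

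Of the 12 SN/VTA members with an unadjusted p under 0.05, 10 peaked between ZT21 and ZT6, as did 35.7% of all such genes there. In PFC 8 of 10 did (30.9% of all genes), in STR 0 of 5 (35.1%) and in HAB 2 of 7 (32.7%). This window was chosen with the peaks in view, and the shares are given with no test. The 3 smallest p-values in PFC belonged to Mmp14, Mmp10 (a stromelysin, amplitude 0.20, ZT19.9) and Col8a2 (0.20, ZT22.7). In STR they belonged to Col12a1 (0.24, ZT15.3), Col19a1 (0.14, ZT9.3) and Col14a1 (0.15, ZT13.5), and in HAB to Mmp14, Lama2 (0.20, ZT9.0) and Adamts17 (0.10, ZT18.9). Adjusted p-values of these were 0.142 or more. Timp2, Timp3 and Timp4, the inhibitors, were called in 0 of the 4 tissues by limma. Across the 12 tests of these genes, 1 unadjusted p was under 0.05, that of Timp4 in SN/VTA (amplitude 0.12, ZT0.5, adjusted p = 0.394).

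**Figure D5:**
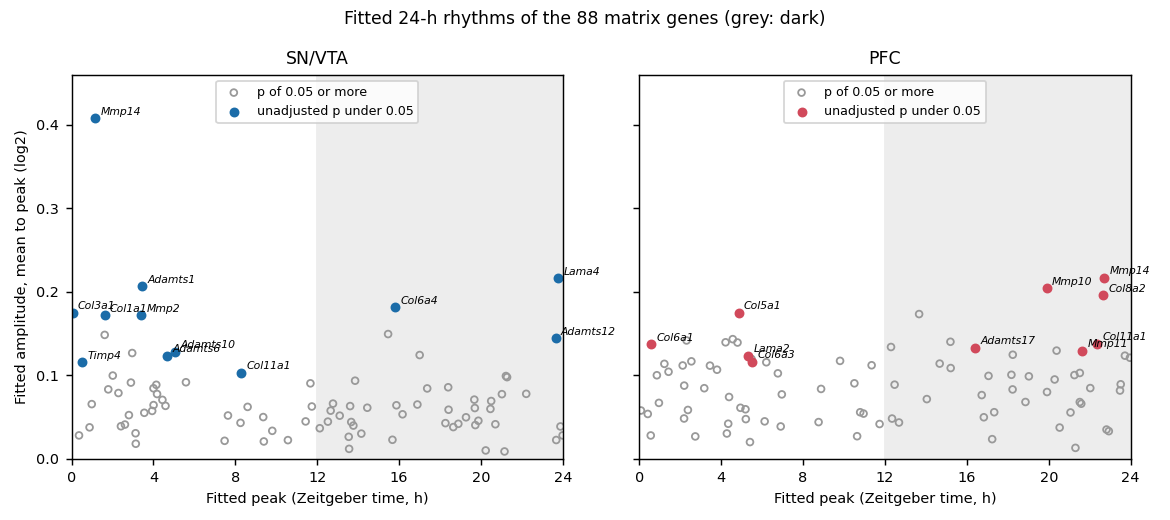
Fitted amplitude (log2, mean to peak) against fitted peak time for the 88 members in SN/VTA and PFC, with filled points for an unadjusted p under 0.05 and the dark phase in grey. Mmp14 in SN/VTA stands alone at 0.41, and 10 of 12 filled points in SN/VTA and 8 of 10 in PFC lie between ZT21 and ZT6.

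Over the 12 SN/VTA arrays the genes outside the families closest to Mmp14 were Id2 (Pearson r = 0.965), Fgfrl1 (0.942), Stxbp5l (0.924), Vstm4 (0.921) and the clock gene Arntl (0.902). Among the members these were Adamts1 (0.829), Lama4 (0.818), Col1a1 (0.775), Col3a1 (0.682) and Mmp2 (0.657). These values describe arrays that share times of day, and carry no test. Of 13 fibroblast markers of meninges and vessels, 0 were called as rhythmic in SN/VTA by limma. An unadjusted p under 0.05 was found for 7, all 7 with a peak in the window of ZT21 to ZT6 chosen above. Of all genes in SN/VTA, 9.88% had such a p, and 35.7% of those peaked in the window. Such a p was also found for 4 of 10 pericyte and smooth muscle markers, all 4 in the window. For oligodendrocyte markers it was 4 of 8, with 2 in the window. The mean of the 13 fibroblast markers was 7.47 and 7.84 at ZT3, 7.64 and 7.23 at ZT7 and 7.04 and 7.23 at ZT11. It was 7.04 and 7.39 at ZT15, 7.39 and 7.15 at ZT19 and 7.26 and 7.57 at ZT23. Its replicates thus differed more than those of Mmp14. The lowest of these 13 markers in SN/VTA was Lum, with a mean of 5.35. Their part in the time course of Mmp14 and of the collagens was not tested.

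Col1a2, a chain of type I collagen, was set against that marker mean across arrays, as 1 of 8 relations tested together by permutation. In SN/VTA r was 0.858 (rho 0.818; p = 0.00041, adjusted p = 0.00164 by permutation), 0.789 without the 2 arrays farthest from the median, and 0.768 and 0.956 within the first and second cycle of 6 arrays. The PFC value was 0.671 (rho 0.545, p of rho 0.0713, p = 0.0143 and adjusted p = 0.0381 for r, all by permutation). It fell to 0.537 without the 2 farthest arrays (p = 0.0960 by permutation), so that its p-value depends on them. STR gave 0.197 (rho 0.0909; adjusted p = 0.616 by permutation). HAB gave 0.882 over all arrays (rho 0.895) and 0.716 without the 2 farthest (p = 0.0218 by permutation), but the HAB arrays fall into the Ttr sets. Within the 7 arrays of high Ttr it was 0.812 (exact permutation p = 0.0506), and the other set is too small. Col4a1 against 11 endothelial markers gave r of 0.474 in SN/VTA, 0.467 in PFC, -0.460 in STR and 0.0111 in HAB. In the same order rho was 0.517, 0.357, -0.510 and 0.0699. Adjusted permutation p-values were 0.177 or more for r and 0.151 or more for rho.

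Between the cycles, 0 members were called in each tissue by limma, against 0% of all genes in SN/VTA, PFC and STR and 0.00579% in HAB. At an unadjusted p under 0.05 there were 15 members in SN/VTA (10.1% of all genes), 3 in PFC (4.11%), 7 in STR (5.23%) and 16 in HAB (7.91%). All 15 members of SN/VTA were higher in the second cycle, the clearest being Col6a5, near the filter, at 4.79 in the first and 5.15 in the second. The share of all genes with that direction is not given, so it is not read as a trait of the members. Of the 16 in HAB, Col8a1 had the largest difference, from 7.66 to 6.76, in the direction of the arrays of low Ttr. Without replicate 1 or without replicate 2 of ZT15 in HAB, Col8a1 and Mmp2 were called.

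Genes that make, anchor or receive the matrix were followed as lists, at the same size of at least 1 on the deposited scale. Of 13 genes for folding and cross-linking collagen, 3 were higher in SN/VTA: P4ha3, a prolyl hydroxylase (2.72-fold), Plod1, a lysyl hydroxylase (2.30-fold), and Pcolce2, an enhancer of procollagen processing (2.00-fold, not called after quantile normalization). Of 12 lecticans and genes of perineuronal nets, the link proteins Hapln2 (2.48-fold) and Hapln4 (2.08-fold, not called after quantile normalization) were higher in SN/VTA. Bcan, the brevican that Adamts4 cuts, was lower in PFC by 1.05 in size (2.07-fold, adjusted p = 7.60e-25), where Adamts4 was lowest too. Among 10 basement membrane partners and 19 matrix receptors, 0 were called at this size in SN/VTA, PFC or STR, and in HAB 0 of 10 and 1 of 19 (Itga7). Centring added Sparc, Ddr1 and Itgb4 as higher in SN/VTA, and quantile normalization added Sparc as lower in PFC. With no minimum difference, 8 of 10 partners were higher and 0 lower in HAB (31.4% and 36% of all genes). In PFC 0 partners were higher and 8 lower (32.2% and 42.6%). Of 19 receptors, 14 were higher and 2 lower in SN/VTA (44.3% and 29.1%). In PFC 2 receptors were higher and 14 lower. These counts were not tested against the shares of all genes. As for rhythm, 0 genes of these lists and of 11 protease activators and other inhibitors were called in any single tissue. The shared rhythm called 5.55% of all genes and 3 of 13 folding genes. All 3 peaked in the dark: P4ha1 (amplitude 0.23, ZT18.5, adjusted p = 3.48e-07, limma), P4ha2 (0.11, ZT17.6) and the collagen chaperone Serpinh1 (0.11, ZT19.3). It called 1 of 19 receptors, the syndecan Sdc4 (0.14, ZT15.6), near the share of all genes. The basement membrane partners, the lecticans and perineuronal genes, and the protease activators and other inhibitors had 0 calls. Among cell type markers it called 5 of 11 endothelial, with Cldn5 (0.21, ZT22.8), 3 of 8 oligodendrocyte and 2 of 13 fibroblast markers. Microglia and choroid plexus markers had 0 calls. Arntl peaked at ZT23.5 (0.35).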

How the data were processed

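Each of 48 pools was hybridised to 1 Mouse Gene 2.0 ST array (Affymetrix). The values that the authors deposited were read as log2 levels of probe sets because of their range, 1.09 to 13.65, with array medians near 6. How they were corrected for background, summarised and normalized is not stated in the labels used here. All columns matched a sample and 0 were unused. Rows with several symbols were left out, the row of highest mean was kept for each of 22180 genes, and 17258 that passed the filter on the mean over arrays were tested. Members, gene lists and tests were chosen with earlier results of these data known.

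The limma package (3.58.1, under R 4.3.3) supplied lmFit and eBayes for all fits, which were checked on simulated data; figures and permutations used Python 3.11.15, pandas 2.3.3 and matplotlib 3.10.9. Tissues were compared with each of the 24 combinations of tissue and time as a group. Rhythms were joint F tests of a cosine and sine of 24 h, with 9 residual degrees of freedom per tissue; the shared rhythm used 48 arrays with tissue as a term, and the cycle test compared replicate 2 with replicate 1 at the same times. Benjamini-Hochberg adjustment ran over all genes tested, with a threshold of 0.05. Correlations used 100000 two-sided permutations.

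Replicate numbers follow the 24-h cycle of the titles and pair samples by cycle. Arrays that share tissue and number had deviations from their group means with an average correlation of 0.0357 (60 pairs, 14 over 0.1), and arrays that share time and number one of 0.0357 (36 pairs, 4 over 0.1); the main tests held no term for the number.

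Named were all called members, Mmp14 and the Timp genes in each tissue, the 3 smallest p per rhythm test, the 3 highest and 3 lowest levels, at most 4 genes per list and the 5 genes most like Mmp14. Genes from pairs of tissues, from the Ttr split, Lama3, Lamb3, Lamc3, Col4a1, Mmp2 and Col6a5 were chosen after their values were seen. Alternatives changed the scaling, the filter, the row per gene, the block and the arrays left out.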

Additional observations from a re-analysis of the deposited data

How the results depend on the processing

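No member called at least 1 apart in a tissue changed direction under the settings run. In HAB, at any size, Col9a3, Col12a1 and Col14a1 were called higher without the 5 arrays of low Ttr and lower without the 7 of high Ttr. The split of members called higher and lower at any size turned over, from 24 and 35 in SN/VTA to 42 and 11 with arrays centred on their median and 39 and 15 after quantile normalization, and from 35 and 27 in STR to 21 and 37, and 21 and 35. Differences of at least 1 gave 2 members in STR with arrays centred on their median (Adamts3, Col12a1), 3 after quantile normalization (with Col6a1 too) and 2 with the mean of all rows of a gene (Adamts3, Col6a1), against 1, and 1 in HAB (Col6a1) under both scalings, against 0. With no minimum difference the counts were 59 in SN/VTA, 55 in PFC, 62 in STR and 65 in HAB. Without the 5 HAB arrays of low Ttr there were 3 members, and without the 7 of high Ttr 1; these settings and the missing minimum were chosen after seeing the data. The SN/VTA rhythm count was 2 (with Lama4) after quantile normalization and at a mean of 6 or more. PFC and HAB each had 1 (Mmp14) with all 48 arrays in 1 model. The shared rhythm kept 1 member, Mmp14, without SN/VTA, without PFC or without HAB. With the replicate number as a block, Col4a2 lost its shared rhythm (adjusted p = 0.0536, limma), Mmp14 in SN/VTA kept its call (0.0174), and no other call changed. Leaving out single arrays gave 1 to 2 rhythmic members in SN/VTA, 0 to 1 differing in HAB (Col6a1, without replicate 1 of ZT7 or ZT15 or replicate 2 of ZT3 or ZT23), 0 to 2 between cycles in HAB and 2 to 3 with a shared rhythm. For Col1a2 and fibroblast markers r was 0.768 in SN/VTA within the first cycle (exact p = 0.0583) and 0.843 in HAB (exact p = 0.0569). In PFC it was 0.537 without the 2 farthest arrays, 0.528 and 0.758 within cycles and 0.473 with the median of the list. For Col4a1 and endothelial markers it was 0.775 and 0.631 in PFC without the 2 farthest arrays and with the median of the list, and -0.956 in STR within the first cycle. Where a cause is not plain from the setting, the cause was not tested. The unknown background limits members of low signal.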
